A study of Mus musculus with 8 samples.

Results

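Annexins are a family of cytosolic proteins that bind negatively charged phospholipids, such as phosphatidylserine, when calcium rises. They were studied here as 10 mouse genes, Anxa1 to Anxa9 and Anxa11, among 30704 genes that had a named probe set on the arrays. The genes were taken by their symbols, each with its brightest probe set, and were chosen by family name with the measured differences of the comparison below already known. The differences of the annexins between the groups are therefore given as a description, with no p-value. Of the 10 genes, 9 had a probe set annotated to a single gene. The 3 probe sets of Anxa11 were each annotated to pseudogenes as well, so its signal is uncertain.

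RNA came from colons of mice of strain C57BL/6 that carried Rag1-/- in both groups. The inflamed group held 3 mice that were Naïve T-injected, which received T cells that induce inflammation, and were killed at severe inflammation with weight loss and diarrhea. The control group held 5 mice that were Treg-injected, which means that they received regulatory T cells, and whose colons were labelled as not inflamed. Rag1 is needed for lymphocyte receptor rearrangement, so the T cells of these hosts derive from the injection and B cells are lacking, whereas neutrophils, macrophages and NK cells are the host's own. Per the labels' protocols the cells were given at 10 weeks of age and the mice were killed 2 to 4 months later, which matches the stated age of 4 to 5 months only in part. The sampled region is uncertain, because a protocol names distal colon while the design text describes tissue along the whole length down to the rectum. The labels call the replicates biological, and 1 array was counted as 1 mouse.

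Annexins bind membranes through a core of repeats that is shared by the family, and differ in a short or long N-terminal tail that binds partner proteins. In the gut and in leukocytes they are known for roles in inflammation, in sealing torn plasma membrane, in plasminogen activation at the cell surface and in vesicle traffic. Anxa1 is known as a protein induced by glucocorticoids that restrains leukocyte recruitment through formyl peptide receptors. Anxa2 pairs with S100a10, and Anxa5 is used as a probe for phosphatidylserine on dying cells.

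The array values were log2 intensities made by the authors with RMA, so 1 unit is a doubling of signal. Array medians lay between 4.81 and 4.91, and 4.88, the median of all transcript clusters, was used as the limit under which a gene was called dim. The means of all 10 annexins were above that limit in both groups. Inflamed replicate 2 stood apart, with Pearson's r over transcript clusters of 0.986 to 0.987 with the other inflamed arrays, which had 0.995 between them, against 0.98 to 0.986 for inflamed with control arrays and 0.994 to 0.997 between controls. Xist signal was high on inflamed replicate 3 and controls 3, 4 and 5 and low on the other arrays, so both sexes were present in each group.

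Promoter windows, reaching from 250 bases before to 50 bases after a transcription start, were held by RefSeq on GRCm38.p6 for 8 of the 10 annexins, in 11 windows. Anxa3 and Anxa6 had no entry. The windows of the 4 annexins with the largest differences are shown because those genes were higher together in inflamed colon, and the first window of Anxa4 because it holds the single kappaB match. Capitals mark motif matches. The windows are Anxa8 at chr14:34085729-34086028 (plus strand), Anxa1 at chr19:20390622-20390921 (minus strand), Anxa5 at chr3:36475838-36476137 (minus strand), Anxa2 at chr9:69453433-69453732 (plus strand) and Anxa4 at chr6:86793535-86793834 (minus strand).
Anxa8: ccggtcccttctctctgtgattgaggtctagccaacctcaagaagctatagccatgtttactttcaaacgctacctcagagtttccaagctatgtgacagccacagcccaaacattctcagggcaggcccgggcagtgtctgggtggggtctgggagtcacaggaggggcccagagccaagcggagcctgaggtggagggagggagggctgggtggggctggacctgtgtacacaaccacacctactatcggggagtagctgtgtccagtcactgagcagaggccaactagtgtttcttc
Anxa1: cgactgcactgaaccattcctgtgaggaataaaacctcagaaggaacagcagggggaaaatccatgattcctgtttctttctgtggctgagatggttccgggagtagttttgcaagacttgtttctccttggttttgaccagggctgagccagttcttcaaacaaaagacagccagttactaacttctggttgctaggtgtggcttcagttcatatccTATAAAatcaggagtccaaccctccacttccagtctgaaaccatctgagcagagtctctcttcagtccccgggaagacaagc
Anxa5: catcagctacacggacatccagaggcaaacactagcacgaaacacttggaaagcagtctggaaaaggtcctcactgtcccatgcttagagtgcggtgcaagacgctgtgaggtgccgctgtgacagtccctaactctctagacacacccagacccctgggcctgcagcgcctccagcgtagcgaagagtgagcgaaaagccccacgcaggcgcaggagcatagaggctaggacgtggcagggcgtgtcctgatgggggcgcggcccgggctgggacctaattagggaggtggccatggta
Anxa2: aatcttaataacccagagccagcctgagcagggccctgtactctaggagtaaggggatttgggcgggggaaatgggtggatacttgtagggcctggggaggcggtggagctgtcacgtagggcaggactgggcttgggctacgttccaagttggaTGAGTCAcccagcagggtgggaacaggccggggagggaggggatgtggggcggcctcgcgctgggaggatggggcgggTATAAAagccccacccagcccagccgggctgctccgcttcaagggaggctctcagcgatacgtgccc
Anxa4: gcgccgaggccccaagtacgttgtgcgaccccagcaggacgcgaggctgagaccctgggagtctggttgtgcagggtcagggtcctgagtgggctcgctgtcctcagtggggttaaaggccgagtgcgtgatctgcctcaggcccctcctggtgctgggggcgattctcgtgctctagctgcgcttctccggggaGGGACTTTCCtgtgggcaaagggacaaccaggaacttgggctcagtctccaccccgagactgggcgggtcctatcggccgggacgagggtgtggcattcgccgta

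Motifs were searched on both strands as plain letters, where N is any base. The TATA box letters TATAAA lay 32 to 27 bases before the start of Anxa1 and 17 to 12 bases before that of Anxa2. They were in 2 of the 11 annexin windows and in 13.6% of all 32851 windows of the table. The AP-1 letters TGANTCA were found in the Anxa2 window alone, 95 to 89 bases before the start, and in 7.81% of all windows. The kappaB letters, GGG and TTTCC with any 2 bases between them, were found once, in the Anxa4 window 55 to 46 bases before the start, and in 1.63% of all windows. The letters TTCNNNGAA of the GAS element (8.3% of all windows), the ISRE core, GAAA and GAAA with any 2 bases between (3.44%), and CCAAT of the CCAAT box (37.4%) were in 0 of the 11 annexin windows. No motif overlapped another in these windows. A match is a string of letters and not a shown binding site, and the windows of Anxa8 and Anxa5 held none of these strings.

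Annexin transcripts were higher in severely inflamed colon for 9 of the 10 genes, by between 0.03 and 2.21 log2 units, and the probe set of Anxa11 was lower. The value of 0.03 was that of Anxa9, whose groups overlapped. Anxa8 and Anxa1 differed most, and were the 2 members that differed at least 2-fold. Anxa5, Anxa2 and Anxa3 formed a middle group with differences of 0.87, 0.87 and 0.75, and Anxa6, Anxa4, Anxa7 and Anxa9 differed by under 0.5. The median difference over the 9 fitted annexins was 0.75, against -0.01 over all genes. Without inflamed replicate 2 that median was 0.55.

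In the fit over all genes with limma, 6 of the 9 fitted annexins passed a Benjamini-Hochberg adjusted p under 0.05, all higher in inflamed colon, where 13.1% of all genes passed in either direction and 8.07% upward. Those 6 were Anxa1, Anxa2, Anxa5, Anxa6, Anxa7 and Anxa8. For 8 of the 10 annexins all 3 inflamed arrays lay above all 5 controls, which held for 12.0% of all genes. In either direction 21.2% of genes were apart, and 9.17% had all inflamed arrays below, as 0 of the annexins did. These shares include dim genes, whereas all 10 annexins were above the dim limit. An unadjusted p under 0.05 was reached by 28.5% of all genes. With dim genes left out of the fit, 4718 of 19622 genes passed the adjusted threshold, 6 annexins among them. Over the 2 inflamed and 2 control arrays with low Xist, 0 annexins and 0 genes of all passed by limma, with 4595 genes at an unadjusted p under 0.05, while the annexin median was 0.88. Nothing is read from these counts, because the contrast was known when the family was chosen. In bulk tissue, fewer cells of a type and less RNA per cell cannot be told apart, and the same holds for more of either.

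**Figure D1:**
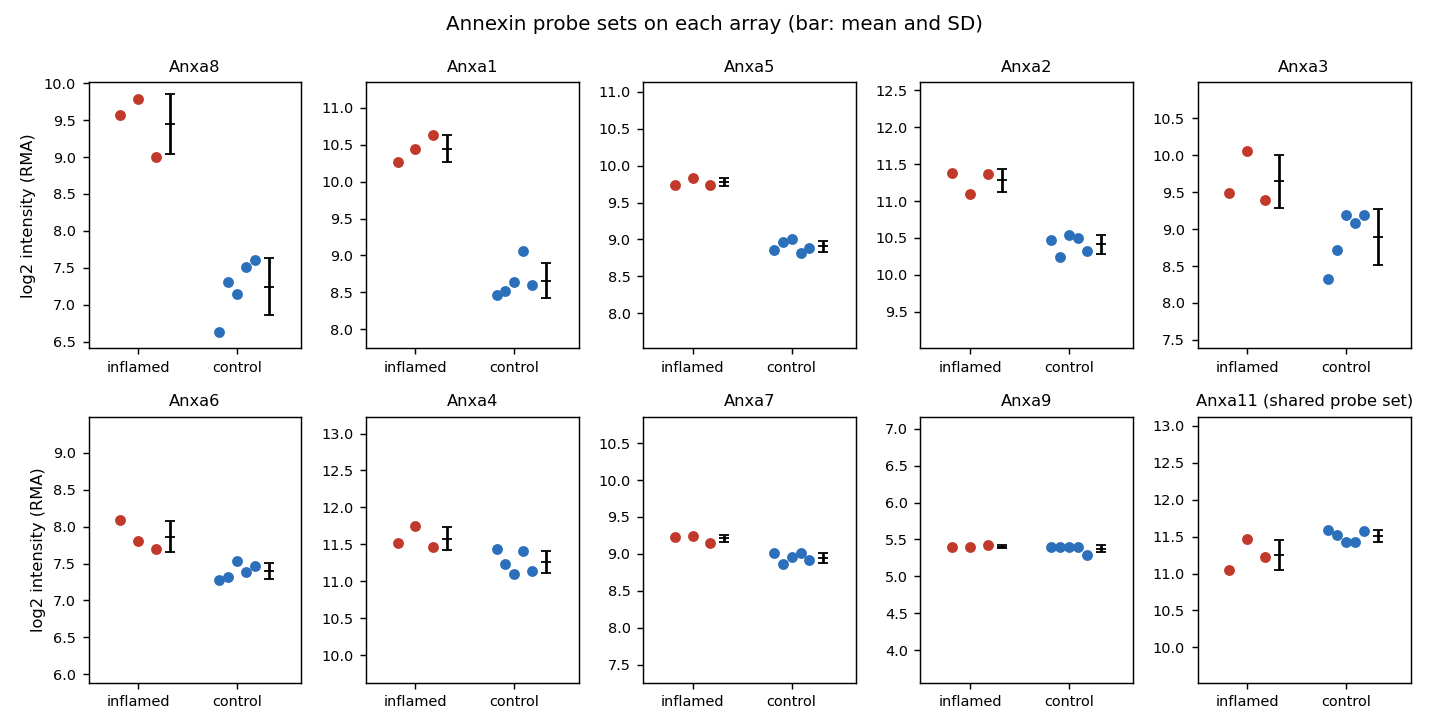
Log2 intensity (RMA) of each annexin on every array, with 3 inflamed arrays left of 5 controls in each panel and a bar for the mean and SD. Every panel spans the same number of log2 units, so heights of differences can be compared between panels. The inflamed arrays of Anxa8 (9.0 to 9.79) and Anxa1 (10.27 to 10.63) stand clear of the controls, while those of Anxa9 lie at the control level.

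Anxa1, the glucocorticoid-induced member, had log2 intensities of 10.27, 10.44 and 10.63 on inflamed replicates 1, 2 and 3. The 5 controls had 8.46, 8.52, 8.64, 9.06 and 8.60. All inflamed arrays were above all controls, with a gap of 1.21 between the lowest inflamed and the highest control array. The mean was 10.45 ± 0.18 in inflamed colon (SD, n = 3) and 8.66 ± 0.24 in control colon (SD, n = 5). The difference was 1.79 ± 0.15 (SE), a 3.46-fold higher signal, with a 95% interval of 1.45 to 2.14 on the log2 scale. Control 4 was the highest control and still lay far from the inflamed range.

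Anxa8, which is known mainly from squamous and other stratified epithelia, had 9.56, 9.79 and 9.0 on the inflamed arrays. Its controls had 6.63, 7.31, 7.14, 7.52 and 7.61. Inflamed replicate 3 was the lowest of its group, and control 1 the lowest of the controls, but the groups were 1.39 apart at their nearest arrays. The mean was 9.45 ± 0.41 in inflamed colon (SD, n = 3) and 7.24 ± 0.39 in control colon (SD, n = 5). The difference of 2.21 ± 0.26 (SE) was 4.63-fold and had the widest 95% interval of the 10 annexins, 1.6 to 2.82. Over the 2 inflamed and 2 control arrays with low Xist the difference of Anxa8 was 2.71.

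Anxa2, which joins S100a10 in a complex at the inner face of the plasma membrane, had 11.38, 11.10 and 11.36 on the inflamed arrays. The controls had 10.47, 10.24, 10.55, 10.50 and 10.32. The groups did not overlap, and inflamed replicate 2 was the inflamed array nearest to them. The mean was 11.28 ± 0.16 in inflamed colon (SD, n = 3) and 10.41 ± 0.13 in control colon (SD, n = 5), a difference of 0.87 ± 0.09 (SE) or 1.82-fold.

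Anxa5, the phosphatidylserine probe, had 9.74, 9.84 and 9.74 on the inflamed arrays. The controls had 8.86, 8.96, 9.0, 8.82 and 8.89. Both groups were tight, spanning 0.097 units in inflamed and 0.18 units in control colon, with a gap of 0.74 between them. The mean was 9.77 ± 0.05 in inflamed colon (SD, n = 3) and 8.91 ± 0.07 in control colon (SD, n = 5). The difference of 0.87 ± 0.05 (SE) was as large as that of Anxa2, and at 12.6 times the pooled SD within groups it was the largest of the 10 relative to its spread. For Anxa1 and Anxa8 that ratio was 8.14 and 5.62.

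**Figure D2:**
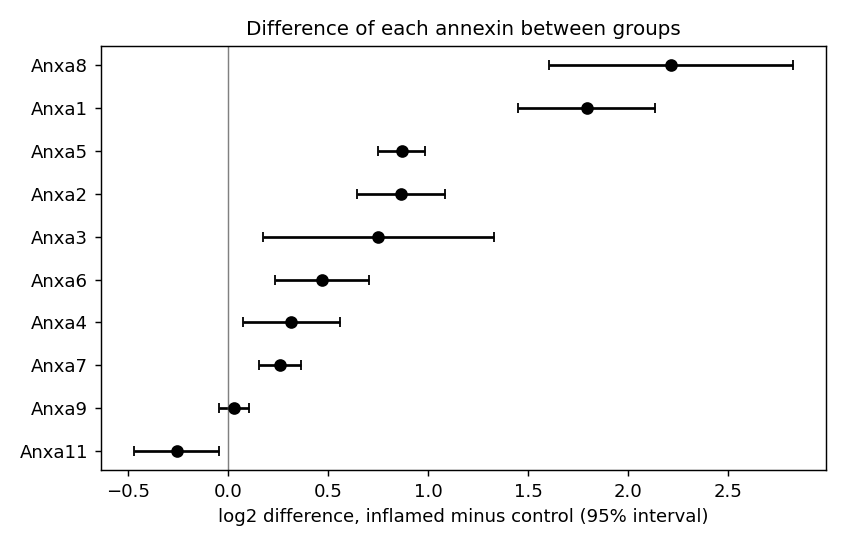
Difference of group means on the log2 scale, inflamed minus control, for each annexin (points) with its 95% interval from limma (bars). The interval of Anxa11 is approximate, with the SE of the fit over all transcript clusters and the degrees of freedom of the fit over named genes. Anxa8 and Anxa1 lie right of 1, the interval of Anxa9 spans 0, and Anxa11, from a shared probe set, is the member left of 0. The intervals are not adjusted for the number of genes and are a description. Those of Anxa3 and Anxa4 lie right of 0, although these 2 genes did not pass the adjusted threshold.

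Anxa3, which is abundant in neutrophil granules and is also made by epithelial cells, had 9.50, 10.06 and 9.39 on the inflamed arrays. The controls had 8.32, 8.72, 9.19, 9.08 and 9.19. All inflamed arrays were higher, but by 0.20 at the nearest point, and the controls alone spanned 0.87. The difference was 0.75 ± 0.25 (SE) and rested in part on inflamed replicate 2. Without that array it was 0.55, and over the arrays with low Xist, which hold the lowest controls 1 and 2, it was 1.26.

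Anxa6, a large annexin with a doubled core that links membranes to actin and cholesterol traffic, had 8.10, 7.81 and 7.69 on the inflamed arrays. The controls had 7.27, 7.32, 7.54, 7.38 and 7.47. The groups did not overlap, and inflamed replicate 1 was farthest from the controls. The difference was 0.47 ± 0.10 (SE). It was 0.35 without inflamed replicate 1, and the gene then no longer passed the threshold, nor did it without control 1, 2 or 4.

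Anxa4, an annexin of polarised epithelia such as that of the gut, had 11.51, 11.75 and 11.46 on the inflamed arrays. The controls had 11.43, 11.23, 11.09, 11.41 and 11.14. The lowest inflamed array was above the highest control by 0.03 only, so the groups nearly touched. The difference was 0.32 ± 0.10 (SE), with a 95% interval of 0.07 to 0.56.

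Anxa7, or synexin, which is known for membrane fusion in exocytosis, had 9.23, 9.25 and 9.15 on the inflamed arrays. The controls had 9.02, 8.86, 8.96, 9.01 and 8.91. The difference was small, at 0.26 ± 0.05 (SE), but the spread was small too and the groups were 0.14 apart.

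Anxa9, an annexin whose calcium-binding sites are degenerate, had 5.40, 5.40 and 5.42 on the inflamed arrays. The controls had 5.40, 5.40, 5.40, 5.39 and 5.29. The 8 arrays held 4 distinct values, and the groups overlapped. The difference was 0.03 ± 0.03 (SE), with a 95% interval of -0.04 to 0.11, in a signal little above the dim limit.

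Anxa11, which binds RNA granules and the calcium sensor Pdcd6 through a long N-terminal tail, could not be measured apart from pseudogene sequence. Its brightest probe set, which it shares with the transcribed pseudogene Gm2274, had 11.05, 11.47 and 11.23 on the inflamed arrays. The controls had 11.58, 11.52, 11.43, 11.43 and 11.58. Inflamed replicate 2 lay within the control range and the other inflamed arrays below it. The difference was -0.26 ± 0.09 (SE) in a fit over all transcript clusters. The probe set shared with Gm2260 gave -0.27 ± 0.09 (SE), and that shared with both pseudogenes gave -0.26 ± 0.09 (SE), with all inflamed arrays below the controls in the last one alone.

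The family has further members in the mouse that were outside the 10 genes. Anxa13, an annexin made mainly in gut epithelium, had 5.65, 6.54 and 5.69 on the inflamed arrays. The controls had 6.76, 6.54, 7.20, 6.79 and 6.80. Its difference of -0.86 ± 0.23 (SE) did not pass the threshold (limma adjusted p = 0.0522), and inflamed replicate 2 lay level with the lowest control. Anxa10, known from stomach, was dim on all arrays, at 3.26 to 3.28 in inflamed and 3.24 to 3.30 in control colon.

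The 3 inflamed mice did not rank the same way for every annexin. Inflamed replicate 2 was farthest from the control mean for 5 of the 10, namely Anxa8, Anxa3, Anxa4, Anxa5 and Anxa7, and nearest for Anxa2 and Anxa11. It was also farthest for 49.8% of the genes above the dim limit in at least 1 group, so this count is not particular to annexins. Replicates 1 and 3 were farthest for 27.1% and 23.0% of those genes, and for 3 and 2 of the annexins. Inflamed replicate 3 was nearest for 6 of the 10, yet farthest for Anxa1, at 1.98 above the control mean against 1.61 and 1.79 on replicates 1 and 2. For Anxa8 replicate 3 was instead the nearest, with 2.32, 2.55 and 1.76 above the control mean on replicates 1, 2 and 3. The SD was larger in inflamed than in control colon for 5 of the 10 annexins, and for 67.9% of the genes above the dim limit in at least 1 group.

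**Figure D3:**
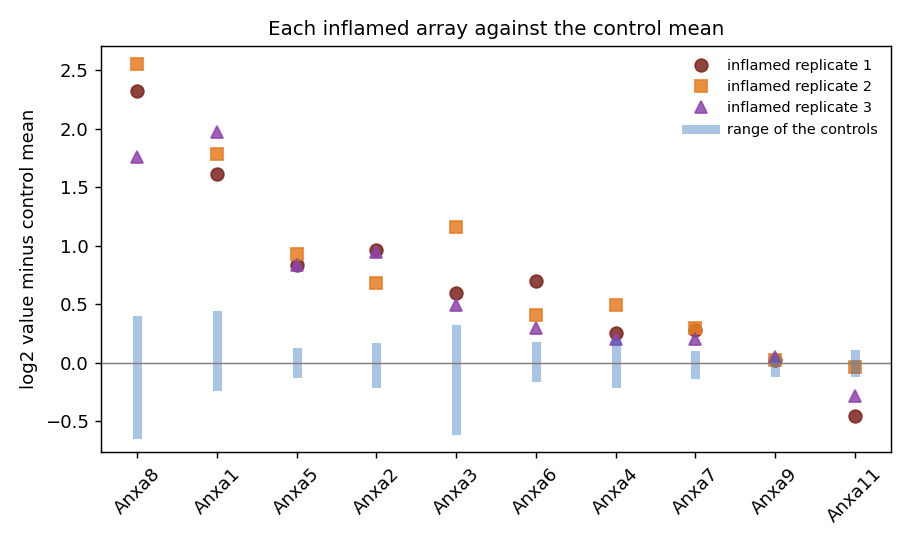
Log2 value of each inflamed array minus the control mean, for each annexin, with the range of the 5 controls as a blue band. Replicate 3 is the highest inflamed array for Anxa1 (1.98) and the lowest for Anxa8 (1.76), and replicate 2 is highest for Anxa3 (1.16).

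Likeness of profiles was measured as the root mean square difference of log2 values over the 8 arrays, each gene centred on its control mean. Among the annexins the nearest pairs were Anxa4 with Anxa7 (0.11), Anxa7 with Anxa9 (0.15) and Anxa2 with Anxa5 (0.15). Anxa1 and Anxa8 were 0.44 apart, and the most distant pair was Anxa8 with Anxa11 (1.55). Small values also arise between genes that hardly vary, as in the pairs with Anxa7 and Anxa9.

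Outside the family, 19622 genes above the dim limit in at least 1 group were searched for the profiles most like those of the 3 annexins with the largest differences. Nearest to Anxa1 were Stom (0.17), the membrane protein stomatin, Pfkfb3 (0.18), a regulator of glycolysis, and Ccr1 (0.19), a chemokine receptor of myeloid cells. Nearest to Anxa8 were S100a14 (0.28), an epithelial S100 protein, Lyz1 (0.29), the lysozyme of Paneth cells, and Clca2 (0.29). Nearest to Anxa5 were the predicted gene Gm5391 (0.06), Tpm4 (0.07), a tropomyosin, and Kctd5 (0.08). This likeness includes the difference between the groups, since genes were centred on the controls.

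Genes that act with annexins were followed in 7 lists with 91 genes, of which 81 had a named probe set. In the limma fit 17 of the 81 rose and 6 fell, or 28.4% of them against 13.1% of all genes. Without inflamed replicate 2 the genes that fell numbered 10. Both shares include dim genes. With dim genes left out of all genes and of the lists, 4718 of 19622 genes passed, and 21 partner genes rose and 9 fell. The lists were chosen with earlier results of these data known, so nothing is read from these counts. The adjusted p-values of list genes given below are likewise a description of the fit. The median difference of the 81 genes was 0.01, against -0.01 over all genes. S100a11, the partner of Anxa1, and the receptor genes Fpr1, Fpr2 and Fpr3 had no probe set named to 1 gene and were not analysed here.

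Among S100 and EF-hand proteins that bind annexins, 3 of the 7 measured genes rose and 0 fell, with a list median of 0.46. S100a10, the partner of Anxa2, had 7.91, 8.25 and 7.93 on the inflamed arrays, against 7.59, 7.26, 7.45, 7.41 and 7.14 in controls. It rose by 0.66 ± 0.12 (SE, limma adjusted p = 0.0133) with no overlap of the groups, beside a difference of 0.87 for Anxa2. S100a4, a further binder of Anxa2, rose by 0.53 ± 0.07 (SE, limma adjusted p = 0.0044). Pdcd6, the calcium sensor bound by Anxa7 and Anxa11, rose by 0.46 ± 0.09 (SE, limma adjusted p = 0.0201), and without inflamed replicate 2 it did not pass (limma adjusted p = 0.0536).

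In the plasminogen system, which Anxa2 with S100a10 is known to promote at cell surfaces, 3 of the 7 measured genes rose and 0 fell, with a list median of 0.05. Plaur, the urokinase receptor, had 8.84, 8.49 and 9.01 on the inflamed arrays, against 7.28, 6.72, 6.80, 6.95 and 6.63 in controls. It rose by 1.90 ± 0.17 (SE, limma adjusted p = 0.000901). Plat, the tissue plasminogen activator, rose by 1.496 ± 0.18 (SE, limma adjusted p = 0.00256), and Plau, urokinase itself, rose by 0.79 ± 0.12 (SE, limma adjusted p = 0.00605). All inflamed arrays were above all controls for each of the 3 genes. Plg, the plasminogen gene, was dim in both groups.

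Annexin A1 was first described as an inhibitor of phospholipase A2, the enzyme that frees arachidonic acid from membranes. Of the 19 measured phospholipase A2 genes 3 rose and 0 fell, with a list median of 0.01. Pla2g2a had 9.23, 9.45 and 9.78 on the inflamed arrays, against 7.37, 7.19, 5.52, 6.02 and 5.98 in controls. It rose by 3.07 ± 0.45 (SE, limma adjusted p = 0.00562), and controls 1 and 2 were well above the other controls. The C57BL/6 strain is known to carry a frameshift in Pla2g2a that prevents an intact enzyme. Pla2g7, the secreted enzyme that degrades platelet-activating factor, rose by 2.53 ± 0.13 (SE, limma adjusted p = 0.000122). Pla2g12b, which lacks catalytic activity, rose by 1.18 ± 0.11 (SE, limma adjusted p = 0.00102). Pla2g4a, the cytosolic enzyme, did not pass and differed by 0.26.

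Among the glucocorticoid receptor and genes of glucocorticoid response or metabolism, 1 of 12 rose and 3 fell, with a list median of -0.02. Nr3c1, the receptor, had 8.54, 8.67 and 8.50 on the inflamed arrays, against 9.07, 8.82, 8.89, 8.93 and 8.87 in controls. It fell by 0.35 ± 0.06 (SE, limma adjusted p = 0.0131), and without inflamed replicate 1 it did not pass (limma adjusted p = 0.0525). Sgk1, a kinase induced by corticosteroids, fell by 0.75 ± 0.14 (SE, limma adjusted p = 0.013). Hsd11b2, which inactivates corticosterone in epithelial cells, fell by 1.44 ± 0.33 (SE, limma adjusted p = 0.0311). It had 7.89, 9.49 and 8.14 on the inflamed arrays, against 9.82 to 10.01 in controls. It did not pass when a single control, or inflamed replicate 1 or 3, was left out (limma adjusted p = 0.0662 to 0.0949). With a floor at the dim limit it did not pass either (limma adjusted p = 0.0608). Without inflamed replicate 2 the difference was -1.93 (limma adjusted p = 0.000306). With array weights it was -1.88 (limma adjusted p = 0.000798). The gene that rose was Hsd11b1, which regenerates the hormone, by 0.24. Tsc22d3, a direct target of the receptor, differed by -0.05 ± 0.03 (SE, limma adjusted p = 0.392), with overlapping groups, and by -0.02 without inflamed replicate 2.

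The formyl peptide receptor genes that could be measured, Fpr-rs3, Fpr-rs4, Fpr-rs6 and Fpr-rs7, were dim in both groups and 0 of the 4 passed the limma threshold, with 0 at an unadjusted p under 0.05. Fpr-rs7 differed by 0.09 ± 0.10 (SE, limma adjusted p = 0.585) and Fpr-rs4 by -0.04 ± 0.06 (SE, limma adjusted p = 0.662). Without inflamed replicate 2 these differences were 0.012 and -0.0051. These values say nothing of Fpr1 and Fpr2, the receptors of Anxa1.

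In a list of membrane repair genes, in which annexins are known to act, 2 of the 14 measured genes rose and 1 fell, with a list median of -0.05. Capn2, a calcium-activated protease, had 9.61, 9.45 and 9.28 on the inflamed arrays, against 7.86, 8.03, 8.47, 8.13 and 8.25 in controls. It rose by 1.30 ± 0.14 (SE, limma adjusted p = 0.00184). Myof, the ferlin myoferlin, rose by 1.12 ± 0.15 (SE, limma adjusted p = 0.00427), and Syt7, a calcium sensor of lysosome exocytosis, fell by 0.84 ± 0.08 (SE, limma adjusted p = 0.0014). The related ferlin gene Dysf differed by -0.02 and did not pass.

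Genes that expose phosphatidylserine or take up cells that show it were counted because Anxa5 binds the same lipid. Of the 18 measured genes 5 rose and 2 fell, with a list median of 0.03. Itgav, an integrin chain that binds the bridging protein Mfge8, had 9.64, 9.54 and 9.79 on the inflamed arrays, against 8.41, 7.996, 7.93, 8.34 and 8.22 in controls. It rose by 1.48 ± 0.12 (SE, limma adjusted p = 0.000706), and Mfge8 rose by 0.71. Gas6, the ligand of the TAM receptors, fell by 1.23 ± 0.09 (SE, limma adjusted p = 0.000413), and its receptor gene Mertk fell by 1.03 ± 0.16 (SE, limma adjusted p = 0.00717). The related receptor gene Axl rose by 0.24, so members of the TAM pathway did not move one way.

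**Figure D4:**
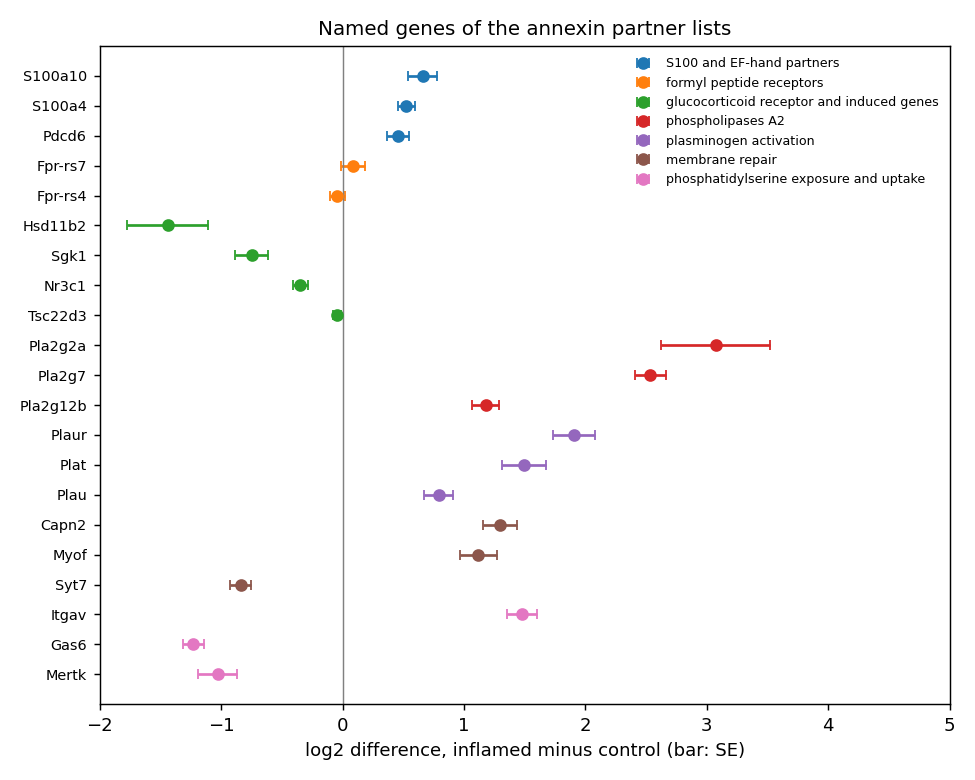
Log2 difference, inflamed minus control, for the named genes of the 7 partner lists (points, coloured by list) with the limma SE (bars). Pla2g2a (3.07) and Pla2g7 (2.53) are the highest, Hsd11b2 (-1.44) is the lowest, and Tsc22d3 (-0.05), Fpr-rs7 (0.09) and Fpr-rs4 (-0.04) lie close to 0.

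Marker genes of several cell types moved with the groups, and the summed level of a list is given as the mean log2 value of its members. Macrophage and monocyte markers rose for 10 of 10 genes, with list means of 7.79 to 8.13 in inflamed and 6.34 to 6.54 in control colon. T cell markers rose for 9 of 9 measured genes, with 6.58 to 7.35 in inflamed and 5.39 to 5.50 in control colon. Neutrophil markers rose for 4 of 10 genes, with 6.65, 7.04 and 8.71 on inflamed replicates 1, 2 and 3 against 5.04 to 5.25 in controls, while S100a8, S100a9, Retnlg, Mmp8 and Ngp were each dim in controls. Mast cell markers rose for 3 of 6 genes, with 4.40 to 5.07 in inflamed and 3.80 to 3.86 in control colon, and Cpa3, Fcer1a and Ms4a2 were dim in both groups. Their part in the higher annexin signal was not tested.

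None of the 12 epithelial markers was dim in either group. Passing that limit does not test the colon label, since Krt5 (5.94) and Cd79a (5.17) also passed it in controls. Of the 12 epithelial markers 1 rose and 4 fell, with list means of 11.01 to 11.40 in inflamed and 11.46 to 11.64 in control colon, and Epcam differed by -0.01. Goblet cell markers fell for 3 of 8 genes and rose for 0, with 11.05 to 11.30 in inflamed and 11.31 to 11.60 in control colon. Smooth muscle markers fell for 5 of 6 genes, with 10.43 to 10.57 in inflamed and 10.95 to 11.49 in control colon. Fibroblast, endothelial and B cell markers passed in 0 of 5 measured genes each by limma, with 2, 1 and 0 genes of these lists at an unadjusted p under 0.05. Fibroblast list means were 7.94 to 8.43 in inflamed and 7.67 to 8.16 in control colon, endothelial means 5.66 to 5.93 in inflamed and 5.74 to 5.85 in control colon, and B cell means 4.34 to 4.44 in inflamed and 4.42 to 4.52 in control colon.

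Squamous markers stood beside Anxa8 and Anxa1, which squamous epithelium is known to express. Of the 11 measured markers 1 rose, Sprr1a, by 1.79, and 0 fell. The list mean was 5.33, 5.31 and 6.58 on inflamed replicates 1, 2 and 3, against 5.10 to 5.25 in controls, and Trp63, Sprr1b and Ivl were dim in both groups. Of the 11 markers 8 were highest on inflamed replicate 3, where Anxa8 was lowest and Anxa1 highest. The other 3, Sprr1a, Sprr1b and Ivl, were highest on inflamed replicate 2, where Anxa8 was highest too, with Sprr1a at 9.48, 10.21 and 9.69 on the inflamed arrays. Without inflamed replicate 3 the difference of Anxa8 was 2.44 and that of Anxa1 was 1.70. The part of squamous epithelium in these differences was not tested.

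**Figure D5:**
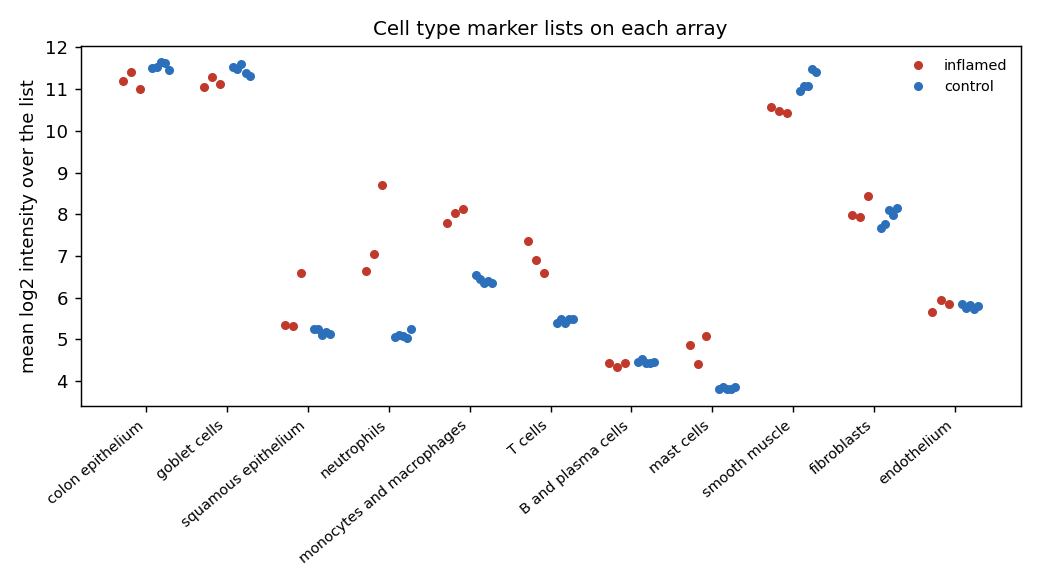
Mean log2 intensity of each marker list on each array, with inflamed arrays (red) left of controls (blue). Macrophage, T cell, neutrophil and mast cell lists are higher on all inflamed arrays, smooth muscle is lower, and the squamous list is high on inflamed replicate 3 (6.58).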

How the data were processed

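RNA was biotin-labelled with the GeneChip WT kit, per the labels' protocols. The authors summarised probe sets as log2 intensities by RMA in Affymetrix Expression Console, per the submitters' processing notes, and no version is named there. RMA compresses low signal, so folds of dim genes are understated. The number of arrays limits the precision.

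Of 72688 probe sets, 6732 control probe sets were dropped. Symbols came from the platform annotation, updated through RefSeq (GRCm38.p6) for 1121 symbols. Probe sets with 1 gene numbered 31261 and covered 30704 genes. The 1489 probe sets with several genes were left unnamed, apart from those of Anxa11. For a gene with several probe sets the brightest was used, and each fitted annexin had 1. Array coordinates are not printed, since the files name no build.

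Groups were compared with limma 3.58.1 (R 4.3.3), using lmFit and eBayes without a trend or covariates, with Benjamini-Hochberg adjustment over all 30704 genes. The script was tested on simulated data. Named genes were all annexins, per list the 3 called genes with the largest differences (or the 2 largest of any where under 2 passed), and S100a10, S100a11, Fpr1, Fpr2, Nr3c1, Tsc22d3, Anxa10 and Anxa13, and for the 3 annexins with the largest differences the 3 most alike genes. Genes given as a difference alone, and the marker genes, were named after their values were seen. The members and lists were chosen with earlier results of these data known. Alternatives covered scaling, a floor, dim genes, probe sets, variance models, array weights, the replicate number, sex and each array left out. Protein sequences were not analysed here.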

Additional observations from a re-analysis of the deposited data

Results flagged for a closer look

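Among the annexins and the named partner genes, 31 control groups were examined for an array far from the other 4, and 3 had a gap from the nearest other array that was a larger part of the control range than the limit of 0.71. Chance alone gives about 1 such group in 20. Anxa9 was lowest on control 5, at 5.29 against 5.39 to 5.40 on the other controls, a gap ratio of 0.968 within a range of 0.10 units. Mertk was lowest on control 2, at 8.61 against 8.91 to 8.95, a gap ratio of 0.883. Pla2g12b was lowest on control 4, at 6.26 against 6.52 to 6.62, a gap ratio of 0.719.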

How the results depend on the processing

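No difference of a fitted annexin changed direction in the 19 alternative settings, although that of Anxa9 was 0 over the arrays with low Xist, and Anxa3, Anxa4 and Anxa9 passed the threshold in 0 of them. With each array left out in turn, 2510 to 4577 genes passed, against 4025 with all arrays, with the lowest count without inflamed replicate 1 and the highest without inflamed replicate 2, the annexins that passed numbered 5 to 6, and the partner genes that passed numbered 13 to 16 upward and 4 to 10 downward. The annexin median then ran from 0.55 to 0.82, and with array weights it was 0.58. With the replicate number as a block, limma called 0 genes of all, 0 annexins and 0 partner genes, with 4919 genes at an unadjusted p under 0.05. The labels name no pairing of the mice by number. Deviations of same-numbered arrays had r of -0.29, -0.05 and 0.07, against -0.22 to 0.35 for arrays of other numbers. With so few arrays these values cannot decide whether the numbers pair the mice. The block leaves few degrees of freedom. Over the 2 inflamed and 2 control arrays with low Xist, an alternative added after seeing the data, limma likewise called 0 genes of all, 0 annexins and 0 partner genes, with 4595 genes at an unadjusted p under 0.05, and Anxa3 and Anxa8 differed by 1.26 and 2.71. With sex as a block 3272 of the 30704 genes passed, 6 annexins among them. Signal near background limits what can be said of Anxa9 and of the formyl peptide receptor genes.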

Other observations

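Squamous keratin genes were high on a single inflamed array. Krt5, a basal keratin, had 5.95, 5.84 and 9.71 on inflamed replicates 1, 2 and 3, against 5.85 to 6.06 in controls. Krt13 had 5.55, 5.34 and 7.78 on the inflamed arrays, against 5.39 to 5.55 in controls, and Krt4 had 4.92, 4.82 and 7.09, against 4.91 to 5.02 in controls. On inflamed replicates 1 and 2 these keratins lay within or under the control range, while Anxa8 was at 9.56 and 9.79 there. The squamous marker Sprr1a was at 9.48 and 10.21 on those replicates, against 7.37 to 8.65 in controls. Whether squamous epithelium had a part in the Anxa8 signal was not tested.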
